A study of Mus musculus with 14 samples.

Results

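The genes described here are 10 subunits and partners of the NuRD (nucleosome remodelling and deacetylase) complex: Chd4, Mbd3, Mta1, Mta2, Mta3, Gatad2a, Gatad2b, Rbbp4, Rbbp7 and Sall1. They were taken by name from a count table of 25131 gene rows, by a rule that used none of their values, but with earlier results of these data known. All 10 passed the filter on low counts, which kept 10241 genes. The cells were mouse embryonic stem cells (ESCs) of C57BL/6 background, cultured in serum with leukemia inhibitory factor (LIF), the MEK inhibitor PD0325901 and the GSK3 inhibitor CHIR99021. RNA was sequenced from 2 libraries of Rcor2 knockout (KO) cells and 2 libraries of wild-type (WT) cells, and RCOR2 binding was mapped by chromatin immunoprecipitation (ChIP) in 2 samples of WT ESCs expressing HA-tagged RCOR2, with 2 negative controls (1 of WT cells and 1 of cells expressing mCherry). The binding is therefore that of the tagged protein. Whether the KO cells came from 1 clone and whether replicates were separate cultures is not in the labels, and the p-values therefore cover the spread among these libraries alone, possibly technical.

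NuRD joins a chromatin remodelling motor to histone deacetylases. Chd4 is the ATPase that moves nucleosomes, the Mta proteins are the scaffold that holds the deacetylases Hdac1 and Hdac2, the Rbbp proteins are histone-binding WD40 propellers, Mbd3 is a structural subunit, and the Gatad2 proteins bridge Mbd3 to Chd4. Sall1 is a zinc finger transcription factor that recruits NuRD through its N terminus. In ESCs, NuRD is known to restrain pluripotency genes, and ESCs without Mbd3 commit poorly to differentiation. RCOR2 belongs to the CoREST corepressors, a separate deacetylase complex that shares Hdac1 and Hdac2 with NuRD.

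In short, 2 of the 10 NuRD genes were called in the KO, Rbbp7 and Gatad2b, both higher, where 19.7% of all tested genes were called in either direction (10.4% higher). Both calls were lost when some single libraries were left out, and that of Gatad2b also when its chromosome was centred. In both the Rbbp and the Gatad2 pair the smaller of the 2 paralogs by counts took a larger share in KO than in WT in every library. These shares use the same counts as the calls of Rbbp7 and Gatad2b. Of 13 shares compared, 8 did not overlap, each at p = 0.333 (exact permutation test), the smallest this design allows. The shares of the Mbd pair overlapped, and Chd4, the largest of its family by counts, took a larger share in the KO. Chd4 was higher in both KO libraries without being called. Once each chromosome was centred on its median, Chd4 was called lower (−0.54 in log2 units, adjusted p = 0.00602 by edgeR). The centred value means that Chd4 rose less than the median of chromosome 6. RCOR2 peaks lay within 10 kb of 8 of the 10 NuRD genes, all but Mta2 and Rbbp7, and within 10 kb of 88.7% of all tested genes placed on the genome.

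The promoters of 4 NuRD genes are shown, from the genes with an RCOR2 peak in a promoter window and those with no peak within 10 kb. Each is the 250 bases before a RefSeq start site on GRCm38.p6, 5′ to 3′ on the strand of the gene. For Mta1 (chr12:113098028-113098277, plus strand) and Sall1 (chr8:89044163-89044412, minus strand), the genes with a peak reaching into the window from 250 bases before to 50 after a start, capitals mark the bases under the deposited RCOR2 peak. These were 126 bases in Mta1 and 63 at the outer Sall1 start, which is the one shown; the windows before the other Sall1 starts lay wholly under the peak (250 bases each). For Mta2 (chr19:8941670-8941919, plus strand) and Rbbp7 (chrX:162760122-162760371, plus strand), the genes with 0 peaks, capitals mark matches to the motifs spelled out in the next paragraph.
Mta1: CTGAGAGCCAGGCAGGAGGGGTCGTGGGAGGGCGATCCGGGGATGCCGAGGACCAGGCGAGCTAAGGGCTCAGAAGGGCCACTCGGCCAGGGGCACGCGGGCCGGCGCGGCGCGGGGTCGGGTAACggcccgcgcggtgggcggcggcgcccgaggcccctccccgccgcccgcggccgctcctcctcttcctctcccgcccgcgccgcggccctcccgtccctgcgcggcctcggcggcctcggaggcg
Sall1: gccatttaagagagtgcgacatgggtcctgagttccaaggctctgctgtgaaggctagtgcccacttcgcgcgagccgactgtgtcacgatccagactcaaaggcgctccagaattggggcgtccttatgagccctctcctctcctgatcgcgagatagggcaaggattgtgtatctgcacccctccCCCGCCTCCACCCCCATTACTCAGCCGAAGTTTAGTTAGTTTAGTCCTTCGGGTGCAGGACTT
Mta2: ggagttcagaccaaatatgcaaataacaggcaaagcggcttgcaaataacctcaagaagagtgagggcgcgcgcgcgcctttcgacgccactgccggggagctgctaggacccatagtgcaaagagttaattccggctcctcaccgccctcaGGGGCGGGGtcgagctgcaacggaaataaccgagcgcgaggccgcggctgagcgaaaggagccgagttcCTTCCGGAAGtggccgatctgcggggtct
Rbbp7: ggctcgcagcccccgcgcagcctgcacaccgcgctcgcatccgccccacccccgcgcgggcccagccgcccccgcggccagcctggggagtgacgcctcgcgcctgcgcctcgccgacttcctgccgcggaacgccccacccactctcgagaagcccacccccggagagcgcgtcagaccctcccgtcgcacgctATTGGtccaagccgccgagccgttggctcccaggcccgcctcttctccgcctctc

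Of the 10 genes, 9 had an entry in the RefSeq promoter table, with 14 start sites in all; Mta3 was not matched. Their upstream 250 bases had a median GC content of 65.8% and a median of 21.5 CpG dinucleotides, against 60.0% and 16.0 over the start sites of all tested genes. The most CpG-rich was that of Mta1, at 80.8% GC with 39 CpG, and the least that of the outer Chd4 start site, at 54.0% with 12. In these windows 7 short motifs were searched on both strands. Shares over all promoters are of 32851 RefSeq promoters, those of untested genes included, which is not the background used for GC and CpG. The CCAAT box (CCAAT) was found in 8 of the 14 promoters, belonging to 7 genes, and in 33.8% of all promoters in the table. The ETS motif (CCGGAAG) was found in 2 of the 14, Mta2 and the inner start of Gatad2a (6.91% of all promoters), and the GC box (GGGGCGGGG) in 3, both of Chd4 and that of Mta2 (10.4%). The letters TTCAGCACC of the REST motif (0.301% of all promoters), GCGCATGCG of NRF1 (1.45%), AAGATGGCG of YY1 (0.606%) and TTTCGCGC of E2F (0.256%) were not in these windows.

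Levels are given as CPM (counts scaled to 1000000 per library) after TMM scaling, from libraries of 1286393 to 2951498 counts. Rcor2, the targeted gene, was at 53.8 and 53.5 CPM in the KO and at 80.8 and 80.9 CPM in WT, which is −0.59 on the log2 scale (SE 0.23; adjusted p = 0.0636 by edgeR). The deleted part of Rcor2 is not in the labels, so this level does not check them. The 10 ESC markers summed to 3870 and 4180 CPM in WT and to 4390 and 4410 CPM in the KO. They did not move together. By edgeR, Klf4 (1.3 in log2 units), Lin28a (1.34) and Nanog (0.48) were called higher and Dppa5a (−0.47) lower. The remaining ESC markers were not called. Each list of markers of another cell type (primitive endoderm, trophoblast, neural, fibroblast) summed to at most 27.5 CPM in a library. The 4 trophoblast markers (Cdx2, Elf5, Hand1 and Eomes) summed to 1.26 and 4.54 CPM in WT and to 21.9 and 27.5 CPM in the KO. Eomes was the largest part and was called higher (3.3 in log2 units, adjusted p = 0.000131 by edgeR), and Cdx2 was at 0 in both WT libraries. The 5 neural markers went the other way, summing to 23.4 and 24.2 CPM in WT and to 10.6 and 19.2 CPM in the KO. The primitive endoderm and fibroblast sums overlapped between KO and WT. The part of these in the results below was not tested. Genes of whole chromosomes were shifted in the KO, with a median log2 fold change of 0.92 on chromosome 6 (Chd4), 0.52 on chromosome 8 (Gatad2a and Sall1), 0.48 on chromosome 3 (Gatad2b) and −0.49 on chromosome 11, so values centred on the median of the chromosome are given for the genes on these chromosomes and for Rbbp7. On chromosome Y 2 genes were tested, with a median of −6.02, and 2 were called lower. The part of this difference in the values of the NuRD genes, among them Rbbp7 on chromosome X, was not tested. In cultures sequenced in bulk, fewer cells of a type and less RNA per cell cannot be told apart.

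In WT cells the NuRD genes spanned 18.7 to 638 CPM, in the order Chd4, Rbbp4, Gatad2a, Rbbp7, Mta3, Mta2, Mbd3, Gatad2b, Mta1 and Sall1. This is an order of reads: transcript lengths were not used here, and the sources do not state whether reads fell along the transcript or at its end, so it is not an order of transcripts. Neighbours whose WT libraries overlapped were Gatad2a with Rbbp7, Mta3 with Mta2, Mta2 with Mbd3, and Mbd3 with Gatad2b. Chd4 stood above 97.7% of the tested genes and Sall1 above 37.2%.

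**Figure D1:**
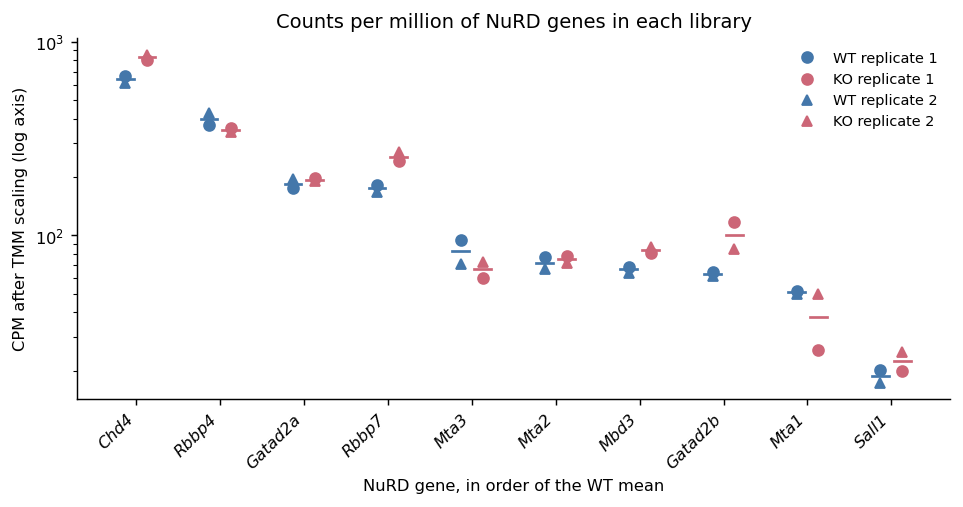
CPM after TMM scaling (log axis) of the 10 NuRD genes in each of the 4 RNA-seq libraries. Points are libraries (circles replicate 1, triangles replicate 2; blue WT, red KO) and bars are means of 2 libraries. The KO points of Rbbp7, Gatad2b, Chd4 and Mbd3 all lie above the WT points.

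Among the NuRD genes 2 of 10 were higher in the KO and 0 lower (edgeR, adjusted p under 0.05), where 10.4% of the 10241 tested genes were called higher, 9.3% lower and 19.7% in either direction. The KO and WT libraries did not overlap in 6 of the 10 genes, against 56.9% of all tested genes. In 4 the KO was higher (28.1% of all tested genes) and in 2, Rbbp4 and Mta1, it was lower (28.8%), by a margin in Mta1 that disappears at 3 digits. The median log2 fold change of the 10 genes was 0.15, and that of all tested genes −0.02. The share without overlap is near that of the whole table, and the share called higher rests on 2 genes. With chromosomes centred, 1 gene was called higher (Rbbp7) and 1 lower (Chd4), against 6.28% and 6.67% of all genes, and the median of the 10 was −0.23.

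The motor, Chd4 (GRCm38 chromosome 6, 125095980 to 125130591), was counted at 667 and 610 CPM in WT and at 805 and 855 CPM in the KO. Both KO libraries lay above both WT libraries. The means were 638 ± 39.8 CPM in WT and 830 ± 35.1 CPM in the KO (SD, n = 2), or 0.38 (SE 0.14) in log2 units, and Chd4 was not called (adjusted p = 0.0528 by edgeR). The log2 fold change of Chd4 was also above 0 with library size alone as scaling (0.32), and was below 0 with its chromosome centred. On chromosome 6, where 56.2% of 502 genes were called higher, 20.5% of the genes had a lower fold change than Chd4. Centred on the median of that chromosome, Chd4 was called lower, at −0.54 (SE 0.14, adjusted p = 0.00602 by edgeR). That value means that Chd4 rose less than the median of chromosome 6. The median was entered as a fixed offset, so its p leaves out the error of the median and the spread among genes of the chromosome. Without centring, Chd4 was called higher by limma-voom (0.37, adjusted p = 0.0277) and without WT replicate 1 (0.46, edgeR, adjusted p = 0.00760).

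Chd4 took nearly all counts of the Chd3, Chd4 and Chd5 motors, which are alternative ATPases of NuRD. Its share was 93.7% and 94.1% in WT and 95.8% and 96.4% in the KO. Chd3 took 4.47% and 5.01% in WT and 2.36% and 2.46% in the KO. Chd5, a motor known mainly from neurons, took 0.932% to 1.88% over the 4 libraries. Chd3 lies on chromosome 11, whose median was −0.49, and Chd4 on chromosome 6, whose median was 0.92; the part of these shifts in the shares was not tested. Chd3 itself was at −0.63 (SE 0.35) and was not called (edgeR, adjusted p = 0.216); centred, it was at −0.14.

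Of the histone-binding paralogs, Rbbp7 rose and Rbbp4 was not called. Rbbp7 (GRCm38 chromosome X, 162760372 to 162779090) was at 182 and 167 CPM in WT and at 241 and 268 CPM in the KO, so that both KO libraries were above both WT libraries. It rose 1.45-fold, from 175 ± 10.5 to 254 ± 19.2 CPM (SD, n = 2). The log2 difference was 0.54 (SE 0.17; adjusted p = 0.0148 by edgeR). Chromosome X, where Rbbp7 lies, had a median of −0.03, and 7.35% of its 340 tested genes were called higher. Rbbp7 was called by edgeR with chromosomes centred (0.57, adjusted p = 0.0132) and by DESeq2 (0.54, adjusted p = 0.0443). The call was lost without KO replicate 1 (0.62, edgeR, adjusted p = 0.0648), KO replicate 2 (0.46, adjusted p = 0.204) or WT replicate 2 (0.48, adjusted p = 0.0526).

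Rbbp4 was at 371 and 427 CPM in WT and at 357 and 340 CPM in the KO. The KO libraries were the lower ones, at −0.19 on the log2 scale (SE 0.15), which was not called (adjusted p = 0.427 by edgeR). Rbbp7 made up 32.9% and 28.1% of the counts of the pair in WT (Wilson 95% intervals 30.4% to 35.5% and 25.1% to 31.4%) and 40.3% and 44.1% in the KO (38% to 42.6% and 41.2% to 46.9%). The share was 11.6 percentage points higher in the KO, and 9.24 to 14.1 points with each library left out in turn. The pair summed to 552.7 and 594.4 CPM in WT and to 598.2 and 608.1 CPM in the KO, so that the KO libraries lay just above WT, by less than the spread between the WT libraries. At their ends, the Rbbp7 interval overlaps that of Txlng by 174 bp and the Rbbp4 interval that of Sync by 2284 bp. Sync was counted at most 3 times in a library, and Txlng, counted 58 to 103 times, was at −0.27 (SE 0.29; edgeR, adjusted p = 0.594). Rbbp4 and Rbbp7 are close paralogs, as are the genes of the other families, and the sources do not state how reads matching several genes were counted.

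Of the bridging paralogs, Gatad2b rose and Gatad2a was not called. Gatad2b (GRCm38 chromosome 3, 90293181 to 90363405) was at 64.9 and 62.0 CPM in WT and at 117 and 85.2 CPM in the KO. Both KO libraries were above WT, with KO replicate 1 well above the other. It rose 1.60-fold, from 63.4 ± 2.01 to 101 ± 22.6 CPM (SD, n = 2), which is 0.68 in log2 units (SE 0.22; adjusted p = 0.0223 by edgeR). On chromosome 3, 65.8% of the 480 tested genes had a lower fold change and 26.2% were called higher. Centred on it, Gatad2b was at 0.20 (SE 0.22) and not called (edgeR, adjusted p = 0.636). The call was also lost by DESeq2 (0.68, adjusted p = 0.103), without KO replicate 1 (0.42, edgeR, adjusted p = 0.423), without WT replicate 1 (0.73, adjusted p = 0.0520) and without WT replicate 2 (0.65, adjusted p = 0.0652).

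Gatad2a was at 176 and 195 CPM in WT and at 198 and 191 CPM in the KO. The groups overlapped, at 0.07 on the log2 scale (SE 0.17; adjusted p = 0.824 by edgeR). On chromosome 8, where 29.4% of the tested genes were called higher, 19.8% had a lower fold change than Gatad2a. Centred, it was at −0.44 (SE 0.17), which was not called (adjusted p = 0.0726 by edgeR). The Gatad2b share of the pair was 27.0% and 24.1% in WT (Wilson 95% intervals 23.5% to 30.7% and 19.9% to 28.9%) and 37.2% and 30.8% in the KO (34.1% to 40.4% and 27.1% to 34.9%). It was 8.48 percentage points higher in the KO, and 5.29 to 11.7 points with each library left out. The pair summed to 240.6 and 257.1 CPM in WT and to 314.9 and 276.3 CPM in the KO, without overlap. Gatad2b lies on chromosome 3 and Gatad2a on chromosome 8, whose medians were 0.48 and 0.52. The part of these shifts in the share and in the sum was not tested.

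**Figure D2:**
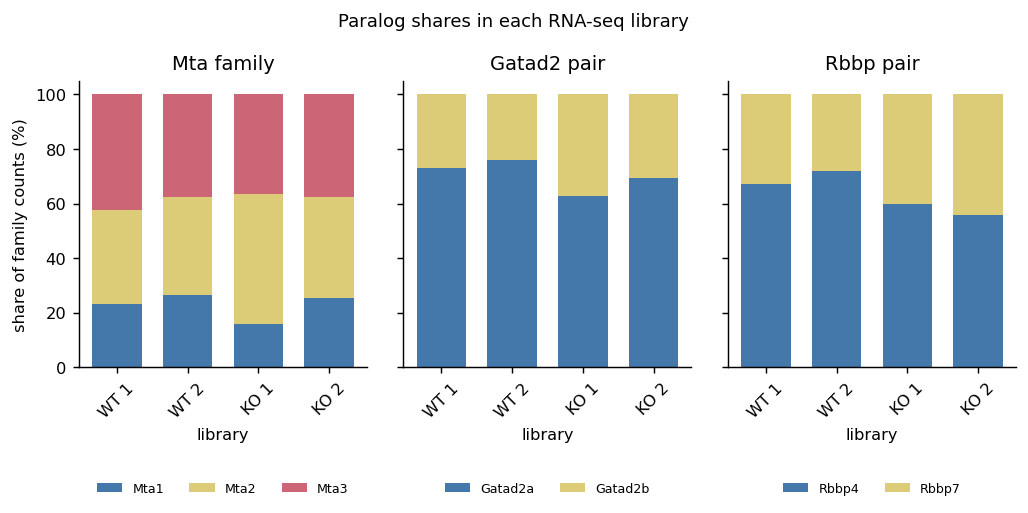
Share of the summed counts of each paralog family (%) taken by each gene in the 4 RNA-seq libraries, as stacked bars from 0. The Rbbp7 share was 28.1% to 32.9% in WT and 40.3% to 44.1% in the KO, the Gatad2b share 24.1% to 27.0% and 30.8% to 37.2%, while the Mta1 shares overlapped.

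The scaffold genes Mta1, Mta2 and Mta3 were of similar size by counts, and 0 of the 3 were called. Mta1 was at 51.9 and 49.9 CPM in WT and at 25.7 and 49.9 CPM in the KO, so that KO replicate 2 was at the WT level and KO replicate 1 below it. In log2 units this was −0.46 (SE 0.29; adjusted p = 0.294 by edgeR), and it was −0.03 without KO replicate 1 and −0.99 without KO replicate 2. Mta2 was at 77.0 and 67.3 CPM in WT and at 78.1 and 72.2 CPM in the KO. The groups overlapped, at 0.05 (SE 0.22; edgeR, adjusted p = 0.913). Mta3 was at 95 and 71.1 CPM in WT and at 60.3 and 73.2 CPM in the KO, again overlapping, at −0.34 (SE 0.23; edgeR, adjusted p = 0.331).

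Within the Mta family Mta3 took 37.8% to 42.4% of the counts in WT, Mta2 34.4% to 35.7% and Mta1 23.2% to 26.5%. In the KO Mta2 took 47.6% in replicate 1 and 37.0% in replicate 2, above both WT libraries, and Mta1 15.7% and 25.5%. Without KO replicate 1 the difference between KO and WT in the Mta1 share went from −4.25 to 0.690 percentage points, and that in the Mta2 share from 7.22 to 1.90. The summed family was at 206 ± 25.1 CPM in WT and 180 ± 22.0 CPM in the KO (SD, n = 2), with overlapping libraries. Of the 13 shares compared over 6 families, 8 did not overlap between KO and WT. In CPM, 56.9% of all tested genes did not overlap, which is not a like measure. Shares within a family depend on each other, and the 8 include Sall2 and Sall3, which did not pass the filter. Each of the 8 gave p = 0.333 in an exact two-sided permutation test, the smallest p that 2 against 2 libraries allow (0.541 after Benjamini-Hochberg adjustment), so the shares could not pass a threshold in this design.

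Mbd3 was at 69.0 and 64.3 CPM in WT and at 80.9 and 87.2 CPM in the KO. The KO libraries were both higher, but the difference of 0.33 in log2 units (SE 0.22) was not called (adjusted p = 0.335 by edgeR). It took 86.4% and 89.5% of the counts of Mbd3 and Mbd2 in WT and 80.3% and 87.0% in the KO, which overlapped; Mbd2 is the methyl-CpG-binding paralog that forms NuRD complexes of its own. A long non-coding gene, Gm30823, overlaps the Mbd3 interval by 2530 bp in the RefSeq table, and the use of strand in counting is not stated in the sources.

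The recruiting factor Sall1 had the fewest counts of the 10 genes, 23 to 58 in a library. It was at 20.1 and 17.4 CPM in WT and at 19.9 and 24.9 CPM in the KO. The groups overlapped, at 0.24 on the log2 scale (SE 0.39; adjusted p = 0.745 by edgeR), and −0.28 when centred on chromosome 8. Sall4, the main member of its family in ESCs, took 89.5% to 93.8% of the Sall counts in the 4 libraries and Sall1 3.75% to 10.3%.

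**Figure D3:**
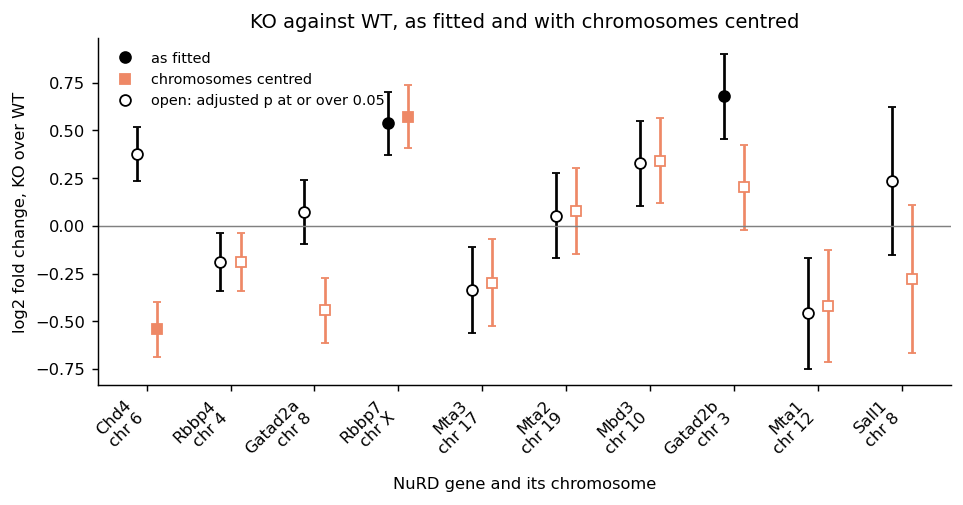
Log2 fold change of KO over WT for the 10 NuRD genes, with error bars of 1 SE, as fitted (black circles) and with each chromosome centred on its median (orange squares). Filled symbols have an adjusted p under 0.05 in edgeR: Rbbp7 in both, Gatad2b as fitted, and Chd4 centred, where it lies below 0.

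**Figure D4:**
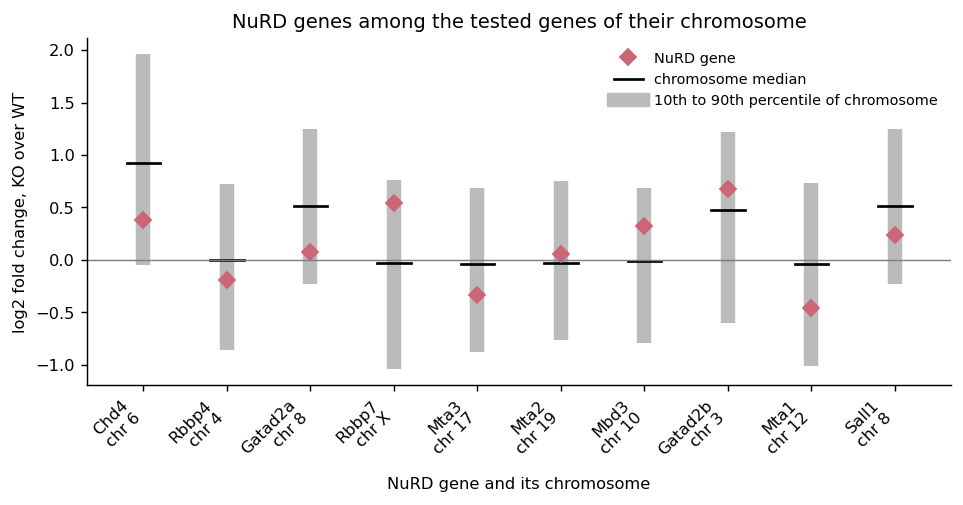
Log2 fold change of KO over WT of each NuRD gene (red diamonds) beside the tested genes of its chromosome, given as the median (black line) and the range from the 10th to the 90th percentile (grey). Chd4, Gatad2a and Sall1 lie above 0 and below the medians of chromosomes 6 and 8, and each NuRD gene lies within the grey range.

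The other NuRD genes were a list of 17 subunits, family members and binding partners, of which 13 were tested. By edgeR 0 were called higher and 0 lower, and 3 had an unadjusted p under 0.05 (Hdac2, Sall4 and Zfp592), where 30.9% of all tested genes did; DESeq2 called 0 and limma-voom 1, Sall4. Their median log2 fold change was 0.04. The deacetylase Hdac1 was at 301 and 302 CPM in WT and at 335 and 344 CPM in the KO (0.17, SE 0.15; edgeR, adjusted p = 0.483). Hdac2 was at 96.7 and 129 CPM in WT and at 82.2 and 74.8 CPM in the KO. That made −0.51 (SE 0.21; edgeR, adjusted p = 0.0796), with both KO libraries below WT. Sall4 was at 324 and 435 CPM in WT and at 344 and 218 CPM in the KO, which overlapped (−0.42, SE 0.17; edgeR, adjusted p = 0.0695). Without WT replicate 1 both Hdac2 and Sall4 were called lower, and without KO replicate 1 Sall4 alone. Leaving out KO replicate 2 brought Sall4 to −0.14, and leaving out WT replicate 2 brought Sall4 to −0.20 and Hdac2 to −0.30, none of them called. Zfp592 was at 9.62 and 9.08 CPM in WT and at 29.5 and 8.31 CPM in the KO, and its difference of 1.04 was −0.17 without KO replicate 1 and 1.64 without KO replicate 2, where it was called higher (adjusted p = 0.0254 by edgeR). Kdm1a, the LSD1 demethylase that NuRD and CoREST can both bind, was at 0.01 (SE 0.16; edgeR, adjusted p = 0.971). Zmynd8 (−0.09), Wdr5 (0.24), Zfp296 (−0.47), Zfp512b (0.04), Cdk2ap1 (0.14), Chd5 (0.33), Mbd2 (0.81) and Zfp592 were not called with all 4 libraries. Sall2, Sall3, Zfp219 and Zfp687 did not pass the filter, with at most 6.81 CPM in a library.

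RCOR2 peaks lay within 10 kb of 8 of the 10 NuRD genes, where 88.7% of 10215 tested and placed genes had such a peak, and within 1 kb of the same number, against 80.6%. Both shares are near the background. The fold of a peak (over its control, at the summit) and its −log10 q are the authors' values from 1 merged list, so there is no replicate to test. The 45 peaks ranged from 3.01-fold to 8.50-fold, with a median of 4.15, and from 2.05 to 18.4 in −log10 q, with a median of 4.46. The medians over all 53366 peaks were 4.38-fold and 5.08. Of the 45 peaks 40.0% had a −log10 q of at least 5, as did 50.0% of all peaks. Peaks of that strength lay near 6 NuRD genes, against 70.2% of the tested genes, and peaks of at least 5-fold near 6, against 57.2%. Of the peaks 21 overlapped the gene interval and 24 lay outside it.

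Mta2 and Rbbp7 had 0 peaks in these windows. The density of peaks in the gene interval and 10 kb on either side was highest at Sall1, with 6 peaks (16.3 per 100 kb), and Chd4, with 8 (14.7 per 100 kb), against a median of 4.48 per 100 kb over the tested genes. Mta1 had 6 (10.2 per 100 kb), Mbd3 2 (7.41), Mta3 9 (6.54), Gatad2a 7 (6.40), Rbbp4 3 (6.22) and Gatad2b 4 (4.43). Of the genes called in the KO, 1 had a peak within 10 kb (Gatad2b) and 1 did not (Rbbp7).

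The strongest peak at a start site of a NuRD gene was that of Sall1. It was 1509 bp wide (chromosome 8, 89042717 to 89044225), 8.27-fold enriched with a −log10 q of 17.4, at or above 94.7% of all peaks, and covered all 3 Sall1 start sites of the table. A long non-coding gene, Gm3134, overlaps Sall1 there on the other strand. On the list of other NuRD genes, Hdac2 had a stronger peak, 8.96-fold with a −log10 q of 20.5 and its summit at −382 bp from its start. The strongest of all 45 lay 2681 bp beyond the end of Mta1 (chromosome 12, 113139887 to 113140760, 8.50-fold, −log10 q of 18.4), with its summit 5 bp from the start of the non-coding F930026P19Rik and reaching into Crip2, so that it is nearer to other genes. The third, 7267 bp beyond Gatad2b (chromosome 3, 90370672 to 90371038, 7.58-fold, 15.4), lay in no gene interval.

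A peak lay within 1 kb of a start in 7 of the 9 genes with a start site in the table (77.8%), as in 71.8% of 8198 tested genes. A peak reached the window from 250 bases before to 50 after a start in 2 of the 9, Mta1 and Sall1, against 52.4%. Positions of summits are given from the nearest start of the gene, negative upstream. At Chd4 the nearest were at −455 bp and 914 bp (3.54-fold and 4.84-fold). At Rbbp4 they were at 209 bp (3.69-fold) and −598 bp (4.20-fold), the latter at a start of Zbtb8os, whose interval begins 162 bp from that of Rbbp4. Gatad2b had one at 255 bp (5.07-fold, −log10 q of 6.64) and Mbd3 one at 299 bp (4.38-fold). Gatad2a had one at −434 bp from its outer start (3.69-fold) and one at 476 bp from its inner start (3.46-fold). The Mta1 summits were at −239 bp and −693 bp (4.38-fold and 3.76-fold).

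Mta3 held the most peaks, all 9 of them overlapping its interval of 117553 bp on chromosome 17. The strongest were one at the lower end of the interval (83706141 to 83706806) and one deeper inside (83729167 to 83729342), each 5.75-fold with a −log10 q of 9.00. Starts of other genes were those in the RefSeq promoter table, which lacks some neighbouring genes, so the number given next could be higher. Apart from Mta3, 10 of the peaks were nearer to the start of another gene, which does not show to which gene a peak belongs. At Chd4 these were the peaks before and at the start of Nop2, of which the stronger (chromosome 6, 125131891 to 125132234) was 5.52-fold with a −log10 q of 8.23. At Gatad2a they included peaks at Ndufa13 and Tssk6, among them the strongest near that gene, 5.98-fold. Also among the 10 were a peak inside Gatad2a and under no other gene interval (69935670 to 69935883), and the one beyond Gatad2b in no gene interval. The peak lists of the TALE pull-downs at the Nanog locus (13 and 4 peaks) had 0 peaks within 10 kb of the NuRD genes.

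**Figure D5:**
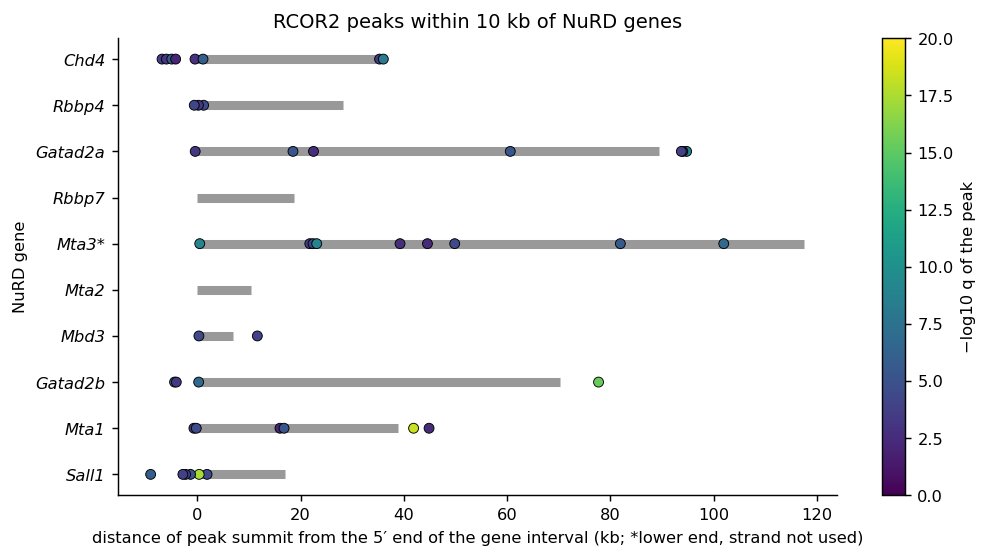
RCOR2 peak summits within 10 kb of each NuRD gene, by distance in kb from the 5′ end of the gene interval (grey bar; for Mta3 from its lower end). Colours give the −log10 q of the peak, up to 18.4. The strongest peaks sit at the start of Sall1 and beyond the ends of Mta1 and Gatad2b, and Rbbp7 and Mta2 have none.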

How the data were processed

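RNA-seq values are raw counts per gene symbol, deposited by the authors, 1 column per library (4 libraries, 1286393 to 2951498 counts). Each column was identical to the file of its library. Tools named without a role in the submitters' processing notes are featureCounts, Subread, STAR 2.5.2b, Trimmomatic 0.36 and SAMtools 1.8; the builds are GRCm38 and mm10. The sources used here do not give strandedness, the handling of shared reads or any collapsing of molecular identifiers. A calendar date stands for the symbol in 26 rows, which were never named.

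Peak lists give a fold enrichment ratio and a −log10 q per peak, as the authors deposited them, and the submitters' processing notes list HOMER, bedtools 2.25.0, Bowtie2 2.3.4.1 and MACS2 2.1.1.20160309. The RCOR2 list was called on merged libraries, per its peak names. Positions are 1-based on GRCm38. Gene intervals and start sites came from RefSeq GRCm38.p6, which placed 25027 rows, 10215 of them tested. A peak was near a gene if any base lay within 10 kb of its interval.

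Counts were filtered with filterByExpr, scaled by TMM and tested with edgeR 4.0.16 (quasi-likelihood, R 4.3.3), two-sided, on the whole table, with Benjamini-Hochberg adjustment over all 10241 genes and a threshold of 0.05. Log2 fold changes are KO over WT. Each SE is the absolute log2 fold change divided by the square root of F. Alternatives were DESeq2 1.42.0, limma 3.58.1 (voom), other scalings, no filter, a replicate block, each library left out, each chromosome centred by an offset equal to its median log2 fold change, and chromosomes 3, 6, 8 and 11 left out. Scripts were tested on simulated data. Wilson 95% intervals cover counting error only. Within each group the replicates varied beyond counting error (chi-square over degrees of freedom 4.79 in WT and 4.22 in KO).

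Named genes are the 10 NuRD genes, the list of 17 other NuRD genes, Rcor2, cell type markers, and genes overlapping a NuRD gene or its peaks. The members and lists were chosen with earlier results of these data known. Control, input and ATAC-seq libraries were not used here by themselves.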

Additional observations from a re-analysis of the deposited data

How the results depend on the processing

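Of 116 values of single NuRD genes under alternatives, 101 kept their direction and their side of the threshold. Most of these were of genes that were not called in the main fit. The 8 values that lost a call were all of Gatad2b and Rbbp7, the only NuRD genes called. With chromosomes centred, Chd4 was at −0.54, Gatad2a at −0.44 and Sall1 at −0.28 in place of above 0. Mta2, at 0.05, ran from −0.0325 (without WT replicate 2) to 0.18 (without WT replicate 1), and was also below 0 without KO replicate 1 (−0.0061). The number of NuRD genes called, 2, was 3 by limma-voom (with Chd4), 1 by DESeq2, 2 with chromosomes centred (Rbbp7 higher and Chd4 lower), 1 with chromosomes 3, 6, 8 and 11 left out (6 of the 10 genes were then tested) and 0 to 2 with a library left out. Of the other NuRD genes limma-voom called 1 in place of 0, and fits without a library 0 to 2. Over all genes 2014 were called, and 1156 by DESeq2, 1326 with chromosomes centred, 950 with the 4 chromosomes left out (fewer genes tested), and 1126 to 1738 with a library left out. The cause was not tested where none is given. Calls split into 1062 higher and 952 lower, and into 886 and 1033 with library size alone as scaling.

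The labels number the replicates but do not say that a number marks a shared culture. The deviations of replicate 1 from replicate 2 in KO and WT had a correlation of −0.05 across genes, so the numbers were not taken to pair the libraries. With the replicate block 2 NuRD genes were called, Gatad2b (0.67) and Rbbp7 (0.54), and 1822 of all genes. The number of NuRD genes with an RCOR2 peak, 8, was 8 with a summit within 10 kb, 8 within 1 kb, 6 at a −log10 q of at least 5 and 6 at a fold of at least 5. Leaving out a library for the paralog shares was added after seeing the data. Levels per kb of coding length were not run, since no protein or transcript length was used here.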
